A study of Mus musculus with 6 samples.

Results

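The genes described here are the nuclear genes for respiratory complexes II to V, the part of the mitochondrial electron transport chain and ATP synthase that feeds heart muscle with ATP. They were taken from the deposited expression table by symbol, among protein-coding genes outside the mitochondrial chromosome. The symbols are Sdha to Sdhd, Cyc1, Cycs and those that begin with Sdhaf, Uqcr, Uqcc, Atp5 or Cox and a digit. This gave 66 of the 54532 genes in the table, and 63 of them had a mean of at least 1 FPKM (fragments per unit of gene length and of library size) over the 6 hearts and were tested. Hearts of 15-day-old mice were compared, 3 labelled Nat10-CKO, a cardiomyocyte-specific knockout of Nat10, and 3 Nat10 flox/flox controls. Nat10 encodes an RNA acetyltransferase that modifies cytidines and acts in ribosome assembly. The sources used here name no Cre driver, strain or sex, and do not say which exons lie between the recombination sites.

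In the chain, complex II (succinate dehydrogenase) passes electrons from succinate to ubiquinone, complex III passes them on to cytochrome c, and complex IV (cytochrome c oxidase) hands them to oxygen. Complex V, the ATP synthase, makes ATP from the proton gradient that complexes I, III and IV build. Complex II is encoded by nuclear genes only, while complexes III, IV and V combine nuclear subunits with a few from the mitochondrial genome. Further nuclear factors insert haem, copper or iron-sulphur clusters and assemble the subunits. In mouse heart some subunits of complex IV exist as a muscle form, whose share grows as the heart matures, and a common form found in most tissues: Cox6a2 beside Cox6a1, Cox7a1 beside Cox7a2 and Cox8b beside Cox8a.

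Each library held between 15048038 and 16280061 fragments assigned to genes. The gene-level value of Nat10 did not check the labels: Nat10 had 3.69, 3.75 and 4.18 FPKM in CKO-labelled hearts, against 3.87, 3.78 and 4.57 FPKM in flox hearts (log2 change −0.06 ± 0.12, limma adjusted p = 0.768). Here limma is the linear model fitted to every gene, and ± after a log2 change is its SE. The Nat10 groups overlapped, and the value covers every exon and every cell type of the heart, so the CKO hearts are named here by their label. Defining markers of cardiomyocytes such as Myh6 and Tnnt2 were high in all 6 hearts. On the first principal component, with 64.0% of the variance, CKO-labelled hearts lay at −50.0, −14.9 and −23.9 and flox hearts at 38.7, 31.0 and 19.1. The groups were apart, and CKO replicate 1 lay farthest from the flox hearts.

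Most of the respiratory genes had lower values in CKO-labelled hearts, but few passed the test. Of the 63 tested, 11 fell and 2 rose at a limma adjusted p under 0.05, and 50 were not called. The share that fell, 17.5%, stands beside 7.19% of all 12469 genes tested, and the 2 that rose stand beside 6.93% of all genes. Values of the groups did not overlap for 22 members on the lower side, where the share of all genes was 19.9%. On the higher side they did not overlap for 3 members (Sdhaf1, Cox6b2 and Cox19), where the share of all genes was 19.7%. Groups that did not overlap are termed apart below. The log2 change, CKO over flox on the scale of log2(FPKM + 1), was below 0 for 51 members and above 0 for 12, with a median of −0.25, while the median over all genes tested was 0.00. Rescaling to TPM or to total counts raised the median of all genes by 0.12 and 0.11. All genes then split into 642 lower and 1416 higher of 15224 tested (TPM), or 652 and 1302 of 12499 (total counts). The main fit had 897 and 864 of 12469. The expression minimum was applied on the new scale, so these gene sets differ in size. Members split into 8 lower and 2 higher (TPM) or 7 and 2 (total counts). Because heart tissue of mixed cell types was sampled, fewer cells of a type and less RNA per cell cannot be told apart. With no filter on low values, 3 members (Sdhc, Sdhd and Cox10) and 325 of 28188 genes were called lower, and the other 8 members missed the threshold (limma adjusted p 0.0507 to 0.289). With array weights, 28 members and 1457 of 12469 genes were called lower. The number of members called lower rested on single hearts: it was 0 without flox replicate 1, 1 without flox replicate 2 (Cox7a1), 3 without CKO replicate 3, 8 without flox replicate 3, 9 without CKO replicate 2 and 17 without CKO replicate 1. The number of all genes called lower moved too, from 897 with 6 hearts to 171 without flox replicate 1 and 234 without flox replicate 2. It was 347 without CKO replicate 3, 844 without flox replicate 3, 834 without CKO replicate 2 and 727 without CKO replicate 1. Without CKO replicate 1, more members but fewer of all genes were thus called lower than with 6 hearts. Neither of the members that rose was called without flox replicate 1 or without flox replicate 2.

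**Figure D1:**
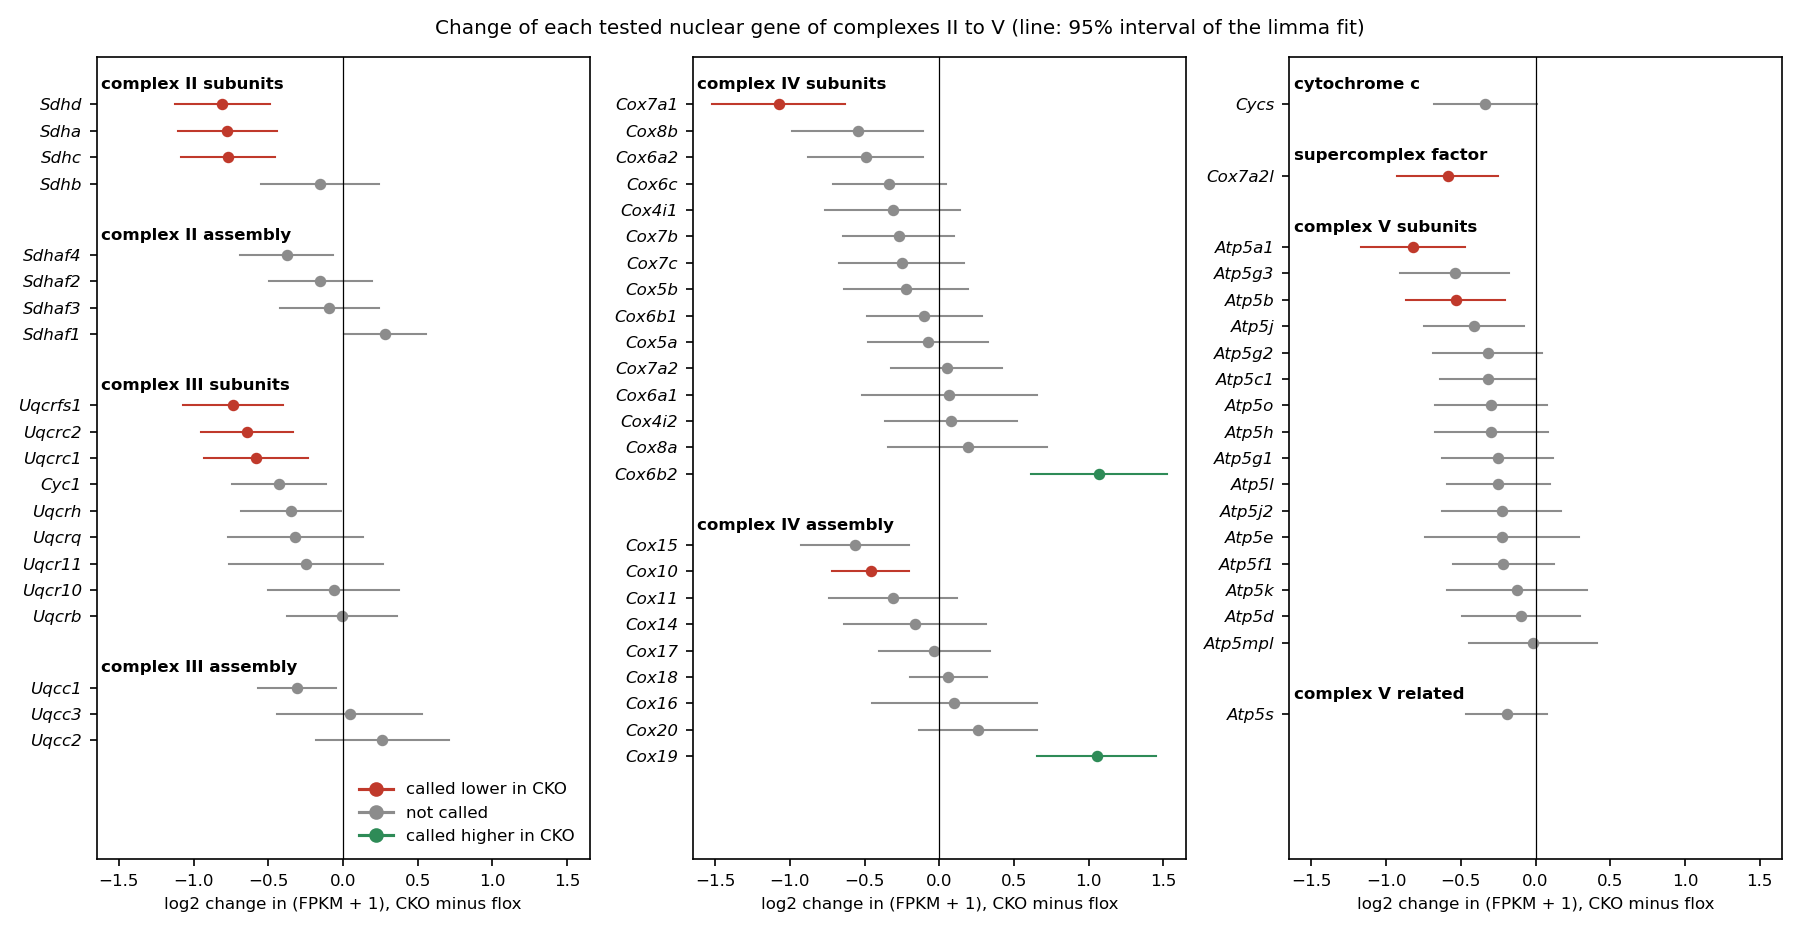
Log2 change in FPKM + 1 (CKO-labelled over flox hearts, horizontal axis) of each of the 63 tested genes, grouped by complex and role, with the 95% interval of the limma fit as a line. Red marks the 11 genes called lower, green the 2 called higher and grey the 50 not called. Most points lie left of 0, and those farthest left are Cox7a1, Atp5a1, Sdhd, Sdha and Sdhc.

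Markers of several cell types moved between the same groups. Of 12 cardiomyocyte markers, 6 fell and none rose, at a median log2 change of −0.62, and their summed level was 15057 to 15706 FPKM in CKO-labelled hearts, against 20295 to 26145 FPKM in flox hearts. Of 10 fibroblast markers, 4 rose, and the summed level was 1112 to 1489 FPKM in CKO-labelled hearts, against 795 to 1073 FPKM in flox hearts. Of the 7 tested macrophage and monocyte markers of 8, 1 rose, with sums of 124 to 229 FPKM in CKO-labelled hearts and 98.4 to 116 FPKM in flox hearts. Of 10 endothelial markers, 1 rose, with sums of 321 to 398 FPKM in CKO-labelled hearts and 419 to 455 FPKM in flox hearts. None of the 7 tested smooth muscle and pericyte markers of 8 was called (397 to 471 FPKM in CKO-labelled hearts, 506 to 636 FPKM in flox hearts). None of the 5 tested erythroid markers of 6 was called either (399.9 to 810.1 FPKM in CKO-labelled hearts, 477 to 820.2 FPKM in flox hearts). Of the 5 tested atrial markers of 6, 2 rose, Nppa and Dkk3. The list summed to 1379 to 2468 FPKM in CKO-labelled hearts and 15.6 to 130.1 FPKM in flox hearts, with Nppa making up most of the sum in CKO-labelled hearts. Myl7 had 31.2, 0.206 and 25.9 FPKM in CKO-labelled hearts and 0.242, 77.7 and 0.406 FPKM in flox hearts. Myl4 and Sln were likewise higher in CKO replicates 1 and 3 and flox replicate 2 than in the other hearts. Nppa had a different order, with 2399, 1370 and 1319 FPKM in CKO-labelled hearts and 9.34, 21.6 and 34.8 FPKM in flox hearts. In CKO replicate 2 Nppa was high where Myl7 was lowest, and in flox replicate 2 low where Myl7 was highest. How much atrial tissue each library held was not tested. Among skeletal muscle and brown fat markers Myh1, Myh2 and Elovl3 were at 0 in every heart and Ucp1 was at most 0.0402 FPKM. The 1 skeletal muscle marker tested of 7, Ckm, which cardiomyocytes express as well, fell (list sums 190.1 to 284 FPKM in CKO-labelled hearts, 397 to 448 FPKM in flox hearts). Of the 2 tested brown fat markers of 4, 1 fell (18.9 to 21.1 FPKM in CKO-labelled hearts, 25.7 to 31.6 FPKM in flox hearts). The part of these differences in the values of the respiratory genes was not tested.

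In complex II 3 of 4 subunit genes fell, by about the same amount, and the fourth, Sdhb, was not called (gene positions are given for GRCm38). Sdha, the flavoprotein that oxidizes succinate (ENSMUSG00000021577, chr13:74322254-74350280, minus strand), had 172, 204 and 187 FPKM in CKO-labelled hearts, against 348, 324 and 294 FPKM in flox hearts (log2 change −0.77 ± 0.14, limma adjusted p = 0.0158). Sdhc, 1 of the 2 membrane anchors that bind ubiquinone (ENSMUSG00000058076, chr1:171127165-171150603, minus strand), had 66.2, 58.4 and 59.6 FPKM in CKO-labelled hearts and 112, 111 and 94.2 FPKM in flox hearts (−0.77 ± 0.13, limma adjusted p = 0.0138). For Sdhd, the other anchor (ENSMUSG00000000171, chr9:50596357-50603812, minus strand), the values were 216, 199 and 179 FPKM in CKO-labelled hearts and 354, 354 and 333 FPKM in flox hearts (−0.81 ± 0.14, limma adjusted p = 0.0126). Every CKO-labelled heart lay below every flox heart for all 3 genes, with mean levels of 58.3%, 58.0% and 57.1% of the flox mean. Sdhb, the iron-sulphur subunit that links the flavoprotein to the anchors, had 254, 205 and 181 FPKM in CKO-labelled hearts, against 262, 219 and 227 FPKM in flox hearts. The groups of Sdhb overlapped and it was not called (log2 change −0.15 ± 0.17, 95% interval −0.55 to 0.24, limma adjusted p = 0.566). The difference between Sdhb and the other subunits was not tested. The 3 calls were lost without flox replicate 1 and without flox replicate 2, and that of Sdha also without CKO replicate 3 and with no filter (limma adjusted p = 0.0510). Whichever heart was left out, limma adjusted p was at most 0.0851 and log2 changes lay between −0.87 and −0.71.

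**Figure D2:**
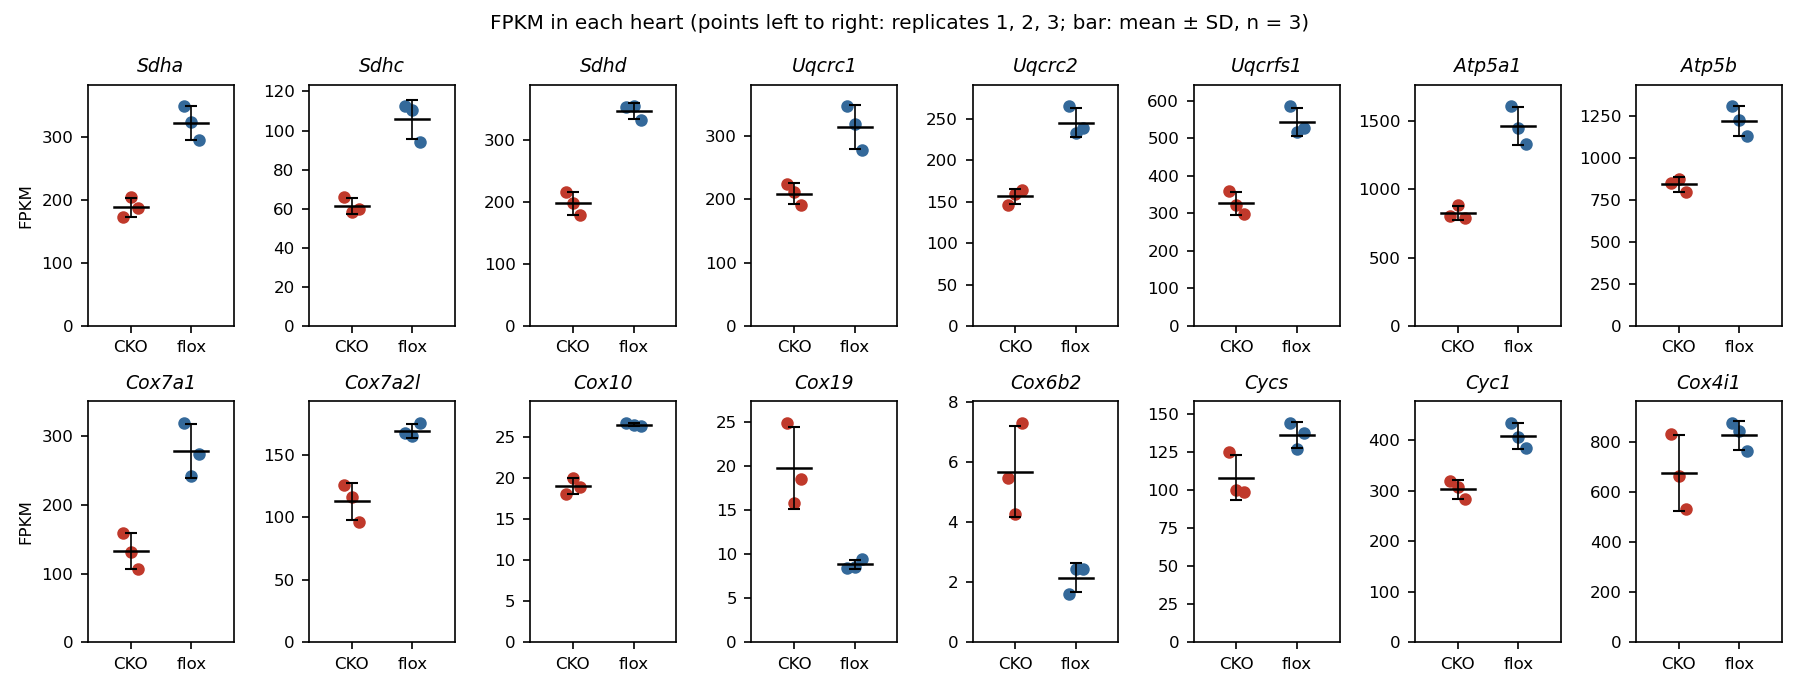
FPKM (vertical axes from 0) of 16 genes in each CKO-labelled heart (red) and flox heart (blue), replicates 1 to 3 from left to right, with the mean and SD of 3 hearts as bars. The groups are apart for Sdha, Sdhc, Sdhd, Uqcrc1, Uqcrc2, Uqcrfs1, Atp5a1, Atp5b, Cox7a1, Cox7a2l, Cox10, Cyc1 and, narrowly, Cycs, where CKO-labelled hearts lie below flox hearts, and for Cox19 and Cox6b2, where they lie above. For Cox4i1, CKO replicate 1 lies among the flox hearts.

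None of the 4 assembly factors of complex II was called, and their median log2 change was −0.12. Sdhaf2, the factor that attaches the flavin to Sdha, had the highest mean of them over the 6 hearts, although Sdhaf4 was higher in each flox heart. Sdhaf2 had 15.8, 14.0 and 11.4 FPKM in CKO-labelled hearts and 16.6, 14.0 and 15.3 FPKM in flox hearts, with overlapping groups (−0.15 ± 0.15, limma adjusted p = 0.513). Sdhaf4, a chaperone of flavinylated Sdha, had 13.9, 10.8 and 11.3 FPKM in CKO-labelled hearts and 16.8, 14.5 and 16.1 FPKM in flox hearts. Its groups did not overlap, but the change missed the threshold with 6 hearts (−0.38 ± 0.13, limma adjusted p = 0.102) and passed it without CKO replicate 1 (adjusted p = 0.0390). Sdhaf1, which serves the iron-sulphur clusters of Sdhb, was higher in each CKO-labelled heart (2.31, 2.30 and 2.08 FPKM) than in any flox heart (1.55, 1.71 and 1.71 FPKM), and was not called (0.28 ± 0.12, limma adjusted p = 0.150). Sdhaf3 was near the expression minimum, at 1.04 to 1.33 FPKM in CKO-labelled hearts and 1.21 to 1.60 FPKM in flox hearts.

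In complex III the 3 subunits that fell were the Rieske protein and both core proteins. Uqcrfs1, the Rieske iron-sulphur protein that takes the first electron from ubiquinol (ENSMUSG00000038462, chr13:30540308-30545362, minus strand), had 359.8, 322 and 298 FPKM in CKO-labelled hearts, against 585, 518 and 527 FPKM in flox hearts (log2 change −0.73 ± 0.14, limma adjusted p = 0.0194). Uqcrc2, a core protein on the matrix side (ENSMUSG00000030884, chr7:120635176-120659524, plus strand), had 146, 159.9 and 164 FPKM in CKO-labelled hearts and 265, 233 and 239 FPKM in flox hearts (−0.64 ± 0.13, limma adjusted p = 0.0226). Its partner Uqcrc1 (ENSMUSG00000025651, chr9:108936633-108949623, plus strand) had 224, 212 and 190.4 FPKM in CKO-labelled hearts and 346, 318 and 277 FPKM in flox hearts (−0.58 ± 0.15, limma adjusted p = 0.0409). Flox values of these genes began above the highest CKO value, at a mean level in CKO-labelled hearts of 60.1%, 63.8% and 66.5% of the flox mean. Cyc1, the haem-bearing subunit that reduces cytochrome c, was also apart, with 318, 307 and 283 FPKM in CKO-labelled hearts and 434, 406 and 385 FPKM in flox hearts, but missed the threshold (−0.43 ± 0.13, limma adjusted p = 0.0732). The remaining 5 subunits, all small, had log2 changes between −0.35 (Uqcrh, groups apart) and −0.01 (Uqcrb) and none was called. Uqcr11 shows how the CKO-labelled hearts differed among themselves for these small subunits, with 479, 361 and 265 FPKM in CKO-labelled hearts, against 449.8, 419.6 and 405 FPKM in flox hearts. CKO replicate 1 was above every flox heart and the other CKO-labelled hearts below. The calls of Uqcrfs1 and Uqcrc2 were lost when CKO replicate 3 or either of flox replicates 1 and 2 was left out. That of Uqcrc1 was lost in these fits and without CKO replicate 2 (limma adjusted p of at most 0.176). With no filter none of the 3 was called (limma adjusted p = 0.0778, 0.0563 and 0.103), and with scaling to total counts Uqcrc1 was not (0.0624).

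The 3 assembly factors of complex III were not called, at a median log2 change of 0.05, which was −0.19 without CKO replicate 1 and also below 0 with array weights or with length trends removed. Uqcc1, a partner of Uqcc2 in the making of cytochrome b, had 14.9, 14.2 and 16.3 FPKM in CKO-labelled hearts and 19.2, 18.6 and 19.2 FPKM in flox hearts, with no overlap (−0.31 ± 0.11, limma adjusted p = 0.105). Uqcc2 had 84.5, 57.1 and 53.0 FPKM in CKO-labelled hearts and 52.0, 50.2 and 56.2 FPKM in flox hearts, with CKO replicates 1 and 2 above the flox hearts and CKO replicate 3 among them (0.26 ± 0.19, limma adjusted p = 0.378).

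Between complexes III and IV, the electron carrier and the factor that joins the complexes gave 1 call. Cycs, the somatic cytochrome c, had 126, 101 and 99.3 FPKM in CKO-labelled hearts, against 144, 127 and 138 FPKM in flox hearts, which is apart by a narrow margin. It was not called (−0.34 ± 0.15, limma adjusted p = 0.163), and was called without CKO replicate 1 (adjusted p = 0.0480). Cox7a2l, the factor that bridges complexes III and IV in supercomplexes (ENSMUSG00000024248, chr17:83501919-83514333, minus strand), fell, with 126, 116 and 96.6 FPKM in CKO-labelled hearts and 167, 165 and 175 FPKM in flox hearts (−0.59 ± 0.14, limma adjusted p = 0.0371). This call held without CKO replicate 1 and was lost without any other single heart (limma adjusted p of at most 0.139). It was also lost with no filter and when values were rescaled to TPM or to total counts.

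Of 15 tested subunits of complex IV, 1 fell (6.67%, beside 7.19% of all genes) and 1 rose, and the median log2 change was −0.22. Cox4i1, the form of subunit IV found in most tissues, had 835, 666 and 532 FPKM in CKO-labelled hearts, against 878, 844 and 765 FPKM in flox hearts, with CKO replicate 1 among the flox hearts (−0.31 ± 0.19, limma adjusted p = 0.304). Cox4i2, the form known from lung and hypoxic cells, had 18.9, 14.7 and 11.0 FPKM in CKO-labelled hearts and 13.0, 13.3 and 14.9 FPKM in flox hearts, also overlapping (0.08 ± 0.19, limma adjusted p = 0.807). Cox6b2, known as the testis form of subunit VIb (ENSMUSG00000051811, chr7:4751792-4753094, minus strand), rose at a low level: it had 5.45, 4.28 and 7.30 FPKM in CKO-labelled hearts, against 1.61, 2.43 and 2.43 FPKM in flox hearts (1.07 ± 0.20, limma adjusted p = 0.0158). Its groups were apart, and its level remained far below that of the common form Cox6b1, which had 633, 479.8 and 476 FPKM in CKO-labelled hearts and 567, 531 and 593 FPKM in flox hearts (−0.10 ± 0.16, limma adjusted p = 0.706). The call of Cox6b2 was lost without flox replicate 1 and without flox replicate 2 (limma adjusted p of at most 0.0646, log2 change between 0.90 and 1.22), and with no filter (0.0599). Cox6c, Cox7b, Cox7c, Cox5b and Cox5a had log2 changes between −0.33 and −0.07, and none was called. Of the remaining testis forms, Cox7b2 was listed at 0.221, 0 and 0.233 FPKM in CKO-labelled hearts and at 0 in every flox heart, and Cox8c at 0 in all 6 hearts.

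The muscle forms of subunits VIa, VIIa and VIII had lower values in every CKO-labelled heart than in any flox heart, but only Cox7a1 passed the test. Cox7a1 (ENSMUSG00000074218, chr7:30184144-30186078, plus strand) had 158, 132 and 106 FPKM in CKO-labelled hearts, against 319, 241 and 274 FPKM in flox hearts, the largest fall among the 63 genes (log2 change −1.08 ± 0.19, limma adjusted p = 0.0144). Its mean was 47.6% of the flox mean. Of the fits with 1 heart left out, this call was lost in that without flox replicate 1 (limma adjusted p = 0.0686), and it was also lost with no filter (0.0507). Its common counterpart Cox7a2 had 269.9, 199 and 204 FPKM in CKO-labelled hearts and 211, 221 and 212 FPKM in flox hearts (0.05 ± 0.16, 95% interval −0.32 to 0.42, limma adjusted p = 0.855). CKO replicate 1 was highest and the other CKO-labelled hearts were just below the flox hearts. Cox8b had 459, 388 and 303 FPKM in CKO-labelled hearts and 571, 499 and 592 FPKM in flox hearts (−0.55 ± 0.19, limma adjusted p = 0.0921), and was called without CKO replicate 1 (log2 change −0.69, adjusted p = 0.0435). For Cox8a the values were 408, 266 and 247 FPKM in CKO-labelled hearts and 242, 235 and 317 FPKM in flox hearts, with overlap (0.19 ± 0.23, limma adjusted p = 0.599). Cox6a2, the most abundant of the muscle forms, had 798, 757 and 598 FPKM in CKO-labelled hearts and 1069, 1002 and 938 FPKM in flox hearts (−0.49 ± 0.17, limma adjusted p = 0.0879). Its counterpart Cox6a1 had 361, 210.1 and 202 FPKM in CKO-labelled hearts and 215, 218 and 285 FPKM in flox hearts, and the groups overlapped (0.07 ± 0.25, limma adjusted p = 0.880). The log2 changes of Cox7a2, Cox8a and Cox6a1 turned below 0 without CKO replicate 1, and those of Cox7a2 and Cox6a1 also with array weights or with a length trend removed.

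Within a heart, FPKM of the 2 forms were set against each other, as both are per length and from the same library. The deposited lengths differ, at 535 and 944 bases for Cox7a1 and Cox7a2, 360 and 545 for Cox8b and Cox8a, and 680 and 702 for Cox6a2 and Cox6a1. The shares were not calibrated between genes, so they serve to compare hearts. The muscle form made up 37.0%, 39.9% and 34.2% of Cox7a1 plus Cox7a2 in CKO-labelled hearts, against 60.2%, 52.2% and 56.4% in flox hearts. For Cox8b of Cox8b plus Cox8a the shares were 53.0%, 59.4% and 55.1% in CKO-labelled hearts and 70.2%, 68.0% and 65.2% in flox hearts. For both pairs each CKO-labelled heart lay below each flox heart, CKO replicate 1 included. The share of Cox6a2 in Cox6a2 plus Cox6a1 was 68.8%, 78.3% and 74.8% in CKO-labelled hearts and 83.3%, 82.1% and 76.7% in flox hearts, and there the groups overlapped. On the log2 scale the ratio of muscle to common form differed by −1.13 for Cox7a1 (SD 0.17 in CKO-labelled and 0.24 in flox hearts), by −0.74 for Cox8b (SD 0.19 in CKO-labelled and 0.17 in flox hearts) and by −0.56 for Cox6a2 (SD 0.35 in CKO-labelled and 0.32 in flox hearts), with n = 3 each. An exact two-sided permutation test over the 6 hearts gave p = 0.1 for Cox7a1 and for Cox8b, the smallest value that 3 hearts against 3 allow, and p = 0.2 for Cox6a2. Adjusted over the 3 ratios by Benjamini-Hochberg, these exact p-values were 0.15, 0.15 and 0.2, so no ratio passed 0.05.

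**Figure D3:**
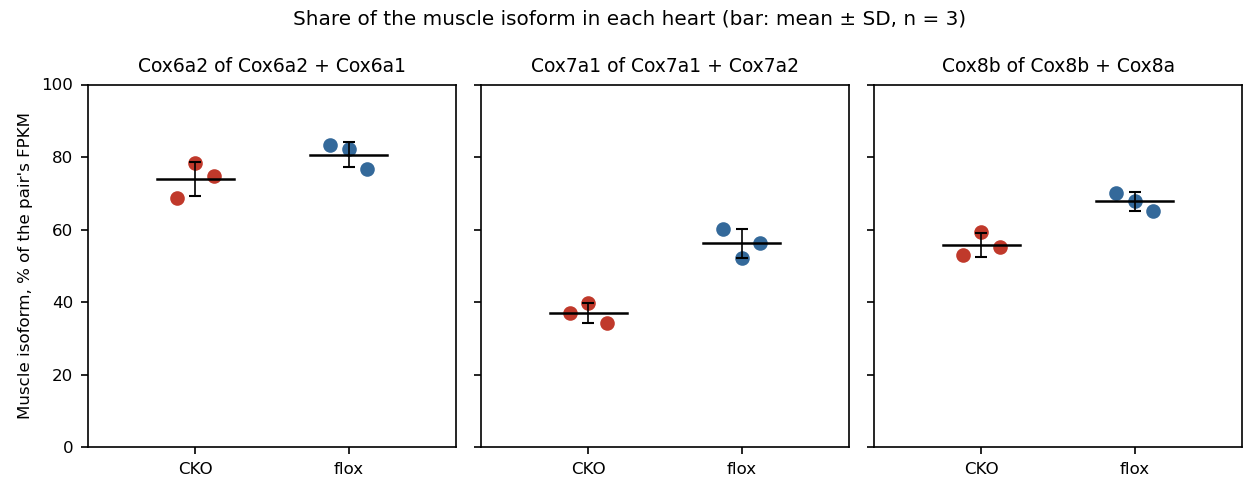
Share of the muscle form in the summed FPKM of a pair (percent, vertical axes from 0 to 100) in each CKO-labelled heart (left, red) and flox heart (right, blue), with the mean and SD of 3 hearts as bars. For Cox7a1 and Cox8b all CKO-labelled hearts lie below all flox hearts, at means of 37.0% and 55.8% in CKO-labelled hearts, against 56.3% and 67.8% in flox hearts; for Cox6a2 the groups overlap.

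The stretches of 250 bases before the RefSeq start sites of the Cox7a and Cox8 pairs (GRCm38.p6) are shown because the muscle form of each pair lay lower in every CKO-labelled heart, while its common form, which takes the same place in the enzyme, overlapped. The same held for Cox6a2 and Cox6a1, but Cox6a2 had no entry among the promoters used, so that pair is not shown. Capitals mark CG pairs, the sites of DNA methylation, which cluster in promoters of genes used in most tissues. Cox7a1 lies on the plus strand at chr7:30183921-30184170, Cox8b on the minus strand at chr7:140900447-140900696, Cox7a2 on the minus strand at chr9:79759854-79760103 and Cox8a on the minus strand at chr19:7217617-7217866.
Cox7a1: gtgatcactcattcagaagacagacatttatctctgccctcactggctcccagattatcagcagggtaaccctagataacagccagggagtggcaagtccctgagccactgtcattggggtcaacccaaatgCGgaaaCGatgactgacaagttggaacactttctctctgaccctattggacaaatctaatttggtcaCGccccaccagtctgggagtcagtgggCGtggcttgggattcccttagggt
Cox8b: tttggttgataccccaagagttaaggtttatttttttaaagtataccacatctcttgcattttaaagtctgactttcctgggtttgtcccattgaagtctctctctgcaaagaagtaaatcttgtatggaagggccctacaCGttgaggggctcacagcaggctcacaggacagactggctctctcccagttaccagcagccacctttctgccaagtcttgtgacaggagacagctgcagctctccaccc
Cox7a2: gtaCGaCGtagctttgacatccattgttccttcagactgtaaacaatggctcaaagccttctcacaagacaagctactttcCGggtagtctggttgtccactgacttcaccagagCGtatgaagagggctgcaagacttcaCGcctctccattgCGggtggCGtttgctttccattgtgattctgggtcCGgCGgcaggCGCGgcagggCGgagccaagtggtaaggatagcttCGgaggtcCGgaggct
Cox8a: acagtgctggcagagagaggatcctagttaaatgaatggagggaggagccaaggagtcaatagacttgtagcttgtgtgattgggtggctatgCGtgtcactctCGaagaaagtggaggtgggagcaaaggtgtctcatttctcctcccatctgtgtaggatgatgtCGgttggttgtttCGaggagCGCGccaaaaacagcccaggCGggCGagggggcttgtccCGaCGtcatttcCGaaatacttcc
The muscle forms had 4 (Cox7a1) and 1 (Cox8b) CG pairs, and the common forms 14 (Cox7a2) and 11 (Cox8a), against a median of 6 over all 32851 promoters in the table and 14.5 over the 50 tested members found there. Of all promoters, 37.8% and 7.87% held fewer pairs than those of Cox7a1 and Cox8b, and 70.6% and 64.4% fewer than those of Cox7a2 and Cox8a. The E-box CAGCTG, read by muscle bHLH factors among others, was found in Cox8b and in none of the other 3; over the 50 members it was in 3 (6%), against 13.0% of all promoters.

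Letters bound by factors known for respiratory genes were searched on both strands in the same 250 bases of the 50 members found, of which 43 had a start within 100 bases of the deposited one. The NRF1 core TGCGCA was in 10 of 50 (20%), against 6.43% of all promoters, the ETS site CGGAAGT in 8 of 50 (16%), against 4.92%, and the ERR core AAGGTCA in 3 of 50 (6%), against 4.08%. No match of one kind overlapped a match of another kind, the E-box included. Of the 8 members found that had fallen, 2 held the NRF1 core, 1 the ETS site, 0 the ERR core and 1 the E-box. The NRF1 core and the ETS site each hold a CG pair, and the median number of CG pairs was 14.5 in the 50 members, against 6 over all promoters. The part of CG content in these shares was not tested. Each member was counted once, by the start nearest the deposited one, while all promoters cover every entry, whatever its expression in heart. The shares and CG medians are thus over unlike sets. These are matches of letters, and no binding was measured.

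Assembly factors of complex IV gave a call in each direction. Cox10, which makes haem O from haem B (ENSMUSG00000042148, chr11:63962627-64079468, minus strand), fell to 18.1, 20.0 and 18.9 FPKM in CKO-labelled hearts, against 26.7, 26.5 and 26.3 FPKM in flox hearts (−0.46 ± 0.11, limma adjusted p = 0.0343). The flox hearts lay within a narrow range and all CKO-labelled hearts below it. Cox15, which turns haem O into haem A, had 7.61, 11.0 and 9.33 FPKM in CKO-labelled hearts and 15.8, 13.1 and 13.6 FPKM in flox hearts, apart, but missed the threshold (−0.56 ± 0.15, limma adjusted p = 0.0509). Cox19, a soluble factor of the copper pathway to complex IV (ENSMUSG00000045438, chr5:139336189-139351418, minus strand), rose, with 24.9, 15.9 and 18.5 FPKM in CKO-labelled hearts, against 8.49, 8.61 and 9.49 FPKM in flox hearts (1.05 ± 0.17, limma adjusted p = 0.0113). Its CKO mean was 2.08-fold the flox mean on the FPKM + 1 scale of the fit, and every CKO-labelled heart was above every flox heart. Of the other copper factors, Cox11 had a log2 change of −0.31 ± 0.18 and Cox17, near the expression minimum, one of −0.03 ± 0.16; neither was called, and no test compared them with Cox19. Cox14, which holds newly made subunit I and had the highest level of the assembly factors, had 168, 119 and 101 FPKM in CKO-labelled hearts and 145, 152 and 129 FPKM in flox hearts, with overlap (−0.16 ± 0.20, limma adjusted p = 0.621). Cox16, Cox18 and Cox20 were below 5 FPKM in every heart and were not called. The call of Cox10 was lost without CKO replicate 3 and without each flox heart in turn (limma adjusted p of at most 0.151) and with TPM or total-count scaling. That of Cox19 was lost without flox replicate 1 (limma adjusted p = 0.0551) and without flox replicate 2 (0.0516), and held under 12 of 12 other settings.

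In complex V the subunits that fell were those of the catalytic ring, which are also its most abundant nuclear transcripts. Atp5a1 (ENSMUSG00000025428), the alpha subunit, had 807, 889 and 787 FPKM in CKO-labelled hearts, against 1607, 1447 and 1331 FPKM in flox hearts (log2 change −0.82 ± 0.15, limma adjusted p = 0.0158). Atp5b, the beta subunit that holds the catalytic sites (ENSMUSG00000025393, chr10:128083273-128090391, plus strand), had 856, 879.5 and 796 FPKM in CKO-labelled hearts and 1309.5, 1231 and 1131 FPKM in flox hearts (−0.53 ± 0.14, limma adjusted p = 0.0468). Both were apart between the groups, at 56.6% and 69.0% of the flox mean. Atp5g3, 1 of 3 genes for the same subunit c of the membrane rotor, was also apart, with 432, 353 and 323 FPKM in CKO-labelled hearts and 553, 517 and 531 FPKM in flox hearts, and missed the threshold (−0.54 ± 0.16, limma adjusted p = 0.0591). The other genes for subunit c, Atp5g2 (−0.32 ± 0.16) and Atp5g1 (−0.25 ± 0.16), were not called. The other 11 tested subunits, from the central stalk (Atp5c1, Atp5d, Atp5e), the peripheral stalk (Atp5f1, Atp5h, Atp5j, Atp5o) and the membrane part (Atp5j2, Atp5k, Atp5l, Atp5mpl), had log2 changes between −0.41 and −0.02 and none was called. The second entry named Atp5o was at 0 in all hearts, and Atp5s, a coupling factor outside the core enzyme, was not called (−0.19 ± 0.12, limma adjusted p = 0.286). The call of Atp5b was lost without each of the 6 hearts in turn and that of Atp5a1 when CKO replicate 3 or either of flox replicates 1 and 2 was left out (limma adjusted p of at most 0.191 and 0.0815). With no filter neither was called (limma adjusted p = 0.289 and 0.151), and Atp5b was also not called with TPM, total-count scaling or quantile normalization.

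Summed over subunit genes, complex II had the lowest mean relative to flox of complexes II to V. Its 4 genes summed to 709, 665 and 607 FPKM in CKO-labelled hearts, against 1076, 1007 and 948 FPKM in flox hearts, or 65.4% of the flox mean. Complex V summed to 4416, 3980 and 3606 FPKM in CKO-labelled hearts and 5857, 5446 and 5211 FPKM in flox hearts (72.7%), and complex III to 2713, 2241 and 2024 FPKM in CKO-labelled hearts and 3198, 2927 and 2910 FPKM in flox hearts (77.2%). These 3 sums did not overlap between the groups. Sums give abundant genes more weight, and Atp5a1 and Atp5b alone averaged 828 and 844 FPKM in CKO-labelled hearts and 1462 and 1224 FPKM in flox hearts. Taken per gene, the median log2 change was −0.77 for complex II, −0.27 for complex V and −0.35 for complex III. For complex V the median log2 deviation from the flox mean was −0.03 in CKO replicate 1, against −0.06 in flox replicate 3, so there the groups overlapped. Complex IV summed to 5112, 4013 and 3484 FPKM in CKO-labelled hearts and 5208, 4923 and 5058 FPKM in flox hearts (83.0%), with CKO replicate 1 inside the flox range. Nuclear subunits of complex I, for comparison, averaged 4233 ± 799 FPKM in CKO-labelled hearts and 5008 ± 185 FPKM in flox hearts (SD, n = 3; 84.5%), also with overlap. The median log2 change of its 35 genes was −0.19. The 6 mitochondrial genes for complexes III to V summed to 51162 ± 4078 FPKM in CKO-labelled hearts and 65796 ± 9401 FPKM in flox hearts (77.8%, no overlap). Most of this came from mt-Co1 and mt-Cytb, with means of 29293 and 18970 FPKM in CKO-labelled hearts and 39687 and 21910 FPKM in flox hearts. Of these 6 genes, 1 was called, mt-Co2 (−0.93 ± 0.24, limma adjusted p = 0.0425), and it was not called without each heart in turn (up to 0.126). Differences between complexes were not tested, since their genes share the same hearts.

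**Figure D4:**
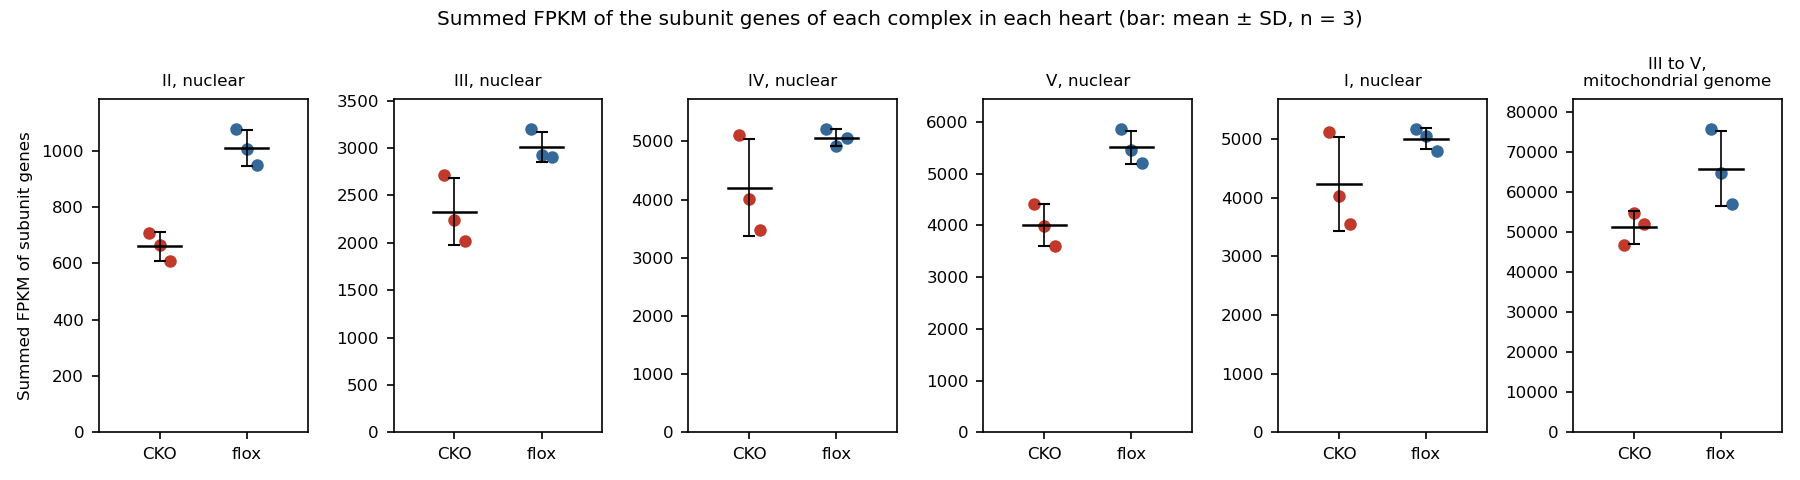
Summed FPKM of the subunit genes (vertical axes from 0) of complexes II, III, IV and V, of nuclear complex I and of the mitochondrial genes for complexes III to V, in each CKO-labelled heart (left, red) and flox heart (right, blue), with the mean and SD of 3 hearts as bars. CKO-labelled hearts lie below flox hearts for complexes II, III and V and the mitochondrial genes, and CKO replicate 1 reaches the flox range for complexes IV and I.

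The subunits that fell tended to be the large ones. Ordered by the longest coding length of each gene in GENCODE M21, the 5 longest of 44 tested subunit genes (Sdha, Atp5a1, Atp5b, Uqcrc1 and Uqcrc2) all fell. Among the 11 of 639 to 1992 coding bases, 6 fell, at a median log2 change of −0.53. All genes of such lengths (6031) had 7.91% called lower and a median of 0.04. The next 11 (387 to 516 bases) held 2 that fell (Sdhc and Sdhd; median −0.30), the next 11 (249 to 336 bases) 1 that fell and 1 that rose (Cox7a1 and Cox6b2; median −0.23), and the 11 shortest (156 to 246 bases) none (median −0.25). Over these length ranges all genes had 5%, 4.15% and 4.72% called lower and medians of 0.13, 0.13 and 0.10. Across the 44 genes, which share the same 6 libraries, Spearman's rho between coding length and log2 change was −0.41. It was −0.57 over 35 nuclear subunits of complex I and −0.22 over all 11031 tested genes with a coding length.

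This order by length was strongest in CKO replicate 1. Against the flox mean, its log2 deviations had a rho of −0.54 with coding length over the 44 subunits, against −0.38 in CKO replicate 2 and −0.25 in CKO replicate 3; over all tested genes the values were −0.40, −0.07 and −0.02. In CKO replicate 1 the median deviation was −0.48 for the longest 11 subunits, 0.01 and 0.06 for the middle groups and 0.17 for the shortest 11. In CKO replicate 2 the same medians were −0.47, −0.34, −0.25 and −0.30, and in CKO replicate 3 they were −0.58, −0.51, −0.30 and −0.52. The 3 hearts were thus alike for long subunits and differed for short ones, and over all 63 members the median deviation was 0.00 in CKO replicate 1, −0.33 in CKO replicate 2 and −0.45 in CKO replicate 3. With the trend of each heart with coding length removed across all genes, an alternative chosen after the data were seen, 34 members fell, and 1253 of 11031 genes. Among subunits these were 3 of complex II, 6 of complex III, 8 of complex IV and 11 of complex V. With the trend with gene length removed instead, 22 members fell, and 1175 of 12469 genes. RNA quality values of the libraries were not analysed here.

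**Figure D5:**
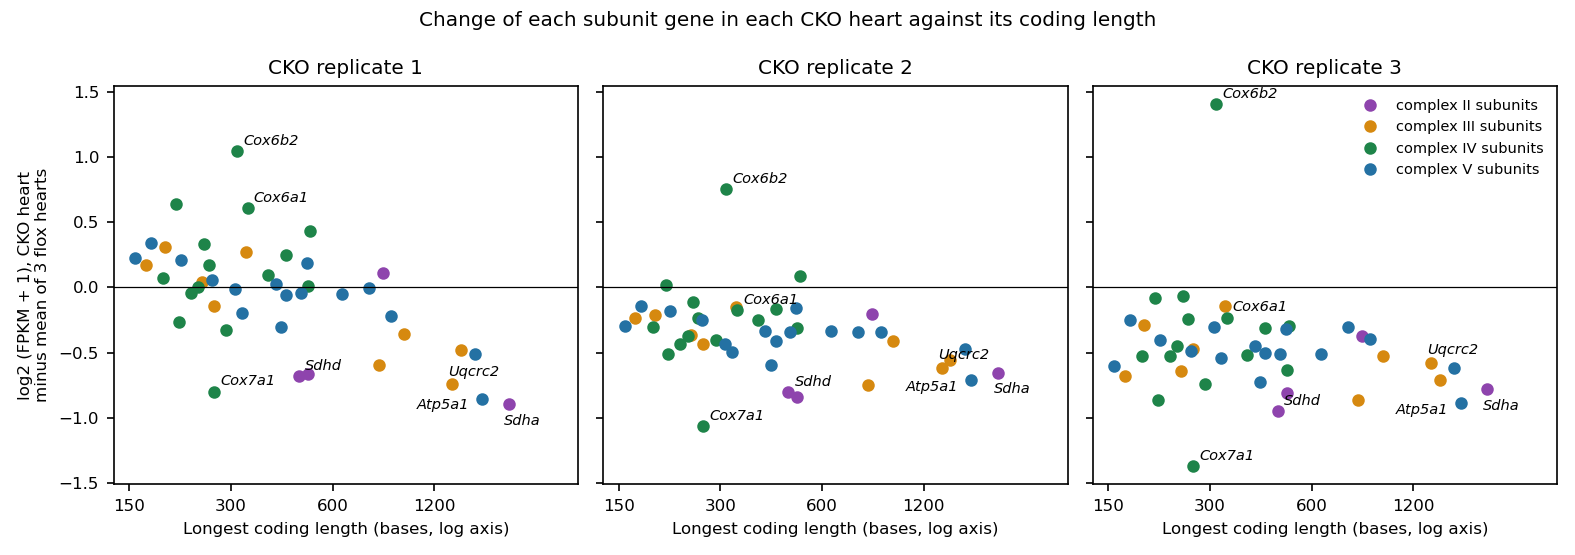
Log2 (FPKM + 1) of each CKO-labelled heart minus the mean of 3 flox hearts (vertical axis) against the longest coding length of the gene in bases (horizontal axis, logarithmic) for the 44 tested subunit genes, coloured by complex, 1 panel per CKO-labelled heart. The longest genes lie below 0 in all 3 panels; short genes scatter around or above 0 in CKO replicate 1 and mostly lie below 0 in the other CKO-labelled hearts.

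Of 27 further nuclear factors of complexes II to V outside the symbol rule, 24 were tested, at a median log2 change of −0.16. Of the 24, 3 fell (12.5%, beside 7.19% of all genes tested) and none rose (beside 6.93% of all genes). Atpaf1, a chaperone of the beta subunit of complex V, had 4.81, 6.44 and 4.69 FPKM in CKO-labelled hearts, against 10.2, 10.4 and 11.7 FPKM in flox hearts (−0.91 ± 0.14, limma adjusted p = 0.0101). This call was kept without each heart in turn, unlike those of the 13 called members (limma adjusted p of at most 0.0445). Taco1, an activator of translation of mitochondrial subunit I of complex IV, had 17.5, 19.9 and 20.5 FPKM in CKO-labelled hearts and 34.2, 27.2 and 33.6 FPKM in flox hearts (−0.68 ± 0.14, limma adjusted p = 0.0219). Coa7, an assembly factor of complex IV, had 4.02, 4.23 and 3.45 FPKM in CKO-labelled hearts and 6.37, 5.97 and 6.03 FPKM in flox hearts (−0.54 ± 0.11, limma adjusted p = 0.0231). All 3 were apart between the groups; the calls of Taco1 and Coa7 were lost without CKO replicate 3 or flox replicate 1, and that of Taco1 also without flox replicate 3 and of Coa7 without flox replicate 2 (up to 0.106 and 0.109). Cyct, the testis cytochrome c, stayed under the expression minimum, and Sco2 and Pet117 were listed at 0 in all hearts.

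Some of these values may be shared with other genes. In the deposited coordinates 12 members overlap another measured gene, among them Cox10, Cox15, Cox4i1, Atp5j, Atp5f1 and Uqcrh. The sources used here do not say whether the counting used strand. Of 14 pseudogene entries named after members, 3 had a mean of at least 1 FPKM and none more than 4.66 FPKM.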

How the data were processed

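Messenger RNA of 6 hearts, 3 per group, was captured on poly-T beads and sequenced as paired reads, per the labels' protocols. The labels state that the 3 hearts of a group are independent. Alignment and counting tools listed in the submitters' processing notes are HISAT2 2.0.5 and featureCounts 1.5.0-p3, beside CASAVA and DESeq2 1.20.0, on the GRCm38 (mm10) genome. The authors deposited FPKM values with a gene length for each gene. FPKM multiplied by length gave whole fragments for 100% of values above 0 (tolerance 0.01), and the implied library sizes show that the FPKM are already scaled by median ratios (size factors 0.893 to 1.07).

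Genes averaging 1 FPKM or more (12469) were fitted as log2(FPKM + 1), using limma 3.58.1 (R 4.3.3) with a mean-variance trend and genotype as the only term, and p-values were adjusted by Benjamini-Hochberg over all genes (two-sided, threshold 0.05). The added 1 makes fold changes on this log2(FPKM + 1) scale smaller than the true ones for low genes. Errors of log2 changes are limma SEs. Isoform ratios were compared by exact permutation over hearts. The scripts were tested on simulated data.

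Members, lists and named genes were chosen with earlier results of these data known. The rule for named genes took muscle isoforms with their counterparts, called members, the most abundant member of each role group, that with the largest change where none was called, and Sdha, Cyc1, Cycs, Cox4i1, Cox4i2, Atp5a1 and Atp5b. Further members, such as Sdhb, Sdhaf1, Uqcr11, Cox6b1, Cox15 and Atp5g3, were named after their values were seen. Coding lengths are from GENCODE M21, and promoter sequences from RefSeq. Alternatives were another pseudocount, filter, scaling, model or length correction, a replicate block, and each heart left out in turn. The calls of single genes of complex I are not reported here.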

Additional observations from a re-analysis of the deposited data

How the results depend on the processing

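The number of members called lower (11) was 3 with no filter on low values, 7 with scaling to total counts, 22 with the gene length trend removed, 28 with array weights and 34 with the coding length trend removed, an alternative chosen after the data were seen; it was between 8 and 16 with a pseudocount of 0.1, a minimum of 5 FPKM, TPM, quantile normalization, no mean-variance trend or voom on recovered fragments. Leaving out each heart in turn gave between 0 and 17 members, and between 171 and 844 of all 12469 genes. The number called higher (2) was 1 with no filter and 1 with a minimum of 5 FPKM, where Cox6b2 is not tested, and between 0 and 2 with each heart left out. With the replicate number of the labels as a block, 1 member was called lower and 2 higher, and of all genes 263 were called lower and 278 higher. Deviations of same-numbered hearts from their group means had correlations of −0.28, −0.14 and −0.19. With 3 hearts per group these values cannot tell whether same-numbered hearts shared a litter or batch, and the labels do not say. With no filter, 28188 genes were fitted and adjusted together, and 325 of all genes were then called lower. The cause of the shifts between settings was not tested. The log2 ratios of muscle to common forms kept their direction under every alternative run, between −1.24 and −1.01 for Cox7a1, −0.84 and −0.65 for Cox8b, and −0.74 and −0.37 for Cox6a2 with each heart left out. The calls of Sdhc and Sdhd were lost under 1 of 12 settings that keep all hearts, the block. With 3 hearts per group, changes of the size of Cyc1 or Cox8b lie near the threshold.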
